A study of Mus musculus with 2 samples.

Results

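The genes described here are those of the mouse major histocompatibility complex (MHC) named H2- and 13 genes that load, regulate or accompany them: Ciita, Nlrc5, Cd74, B2m, Tap1, Tap2, Tapbp, Erap1, Cd1d1, Cd40, Cd80, Cd83 and Cd86. They were chosen by gene symbol through the RefSeq accession of each array probe. The gene table holds 63 such genes. Of these, 47 have a probe, among 20654 genes named on the array, with 59 probes and 78 spots in all. Of these 47 genes, 35 were measured on both arrays, 1 was above background on 1 array only, and 11 were not well above background on either. The other 16 have no probe matched by accession.

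The study set 1 array of Dnmt3a knockout osteoclasts against 1 array of wild type osteoclasts. Dnmt3a is a de novo DNA methyltransferase. For both genotypes, female C57BL/6 mice gave bone marrow, whose cells were grown in M-CSF into adherent macrophage precursors and then in M-CSF with RANKL, the inducer of osteoclasts. The allele, the cells in which the gene was lost, the age of the mice and any pooling are not given in the sources used here.

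MHC class I molecules are heavy chains paired with beta-2-microglobulin (B2m), and they show peptides from inside the cell to CD8 T cells and natural killer cells. The TAP transporter brings these peptides into the endoplasmic reticulum, where tapasin and Erap1 help to load and trim them, and Nlrc5 activates transcription of the class I genes. MHC class II molecules show peptides from endosomes to CD4 T cells: the invariant chain Cd74 escorts them, H2-DM edits their cargo, H2-O restrains H2-DM, and Ciita is their master transactivator. Macrophages and dendritic cells carry both classes together with costimulators such as Cd80 and Cd86, while osteoclasts arise from the same myeloid precursors.

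The promoters of both classes carry known control elements, and 6 are shown because they hold those of the genes whose values follow. Each window runs from 250 bases before to 50 bases after an annotated start (RefSeq, GRCm38.p6), 5′ to 3′. The first-listed start was used where a gene has several. Capitals mark motif letters found on either strand: the kappaB motif GGGGATTCCC, the interferon consensus AGTTTCACTTCT of class I genes, the IRF core GAAANNGAAA, the Y box GATTGG, and AGNAACNNATG, a simplified X box of class II genes. Apart from the Y box, each motif is the run of letters shared by the element in 2 or 3 of these genes, so those genes hold it by construction: H2-K1, H2-D1 and H2-Q7 for kappaB, H2-K1 and H2-D1 for the interferon consensus, B2m and H2-T23 for the IRF core, and H2-DMb1, H2-Ob and H2-Eb1 for the X box. The windows are those of H2-K1 (chr17:34000298-34000597, minus strand), H2-D1 (chr17:35262844-35263143, plus strand), B2m (chr2:122147437-122147736, plus strand), H2-Eb1 (chr17:34305617-34305916, plus strand), H2-Ob (chr17:34238655-34238954, plus strand) and H2-DMb1 (chr17:34152941-34153240, plus strand).
H2-K1: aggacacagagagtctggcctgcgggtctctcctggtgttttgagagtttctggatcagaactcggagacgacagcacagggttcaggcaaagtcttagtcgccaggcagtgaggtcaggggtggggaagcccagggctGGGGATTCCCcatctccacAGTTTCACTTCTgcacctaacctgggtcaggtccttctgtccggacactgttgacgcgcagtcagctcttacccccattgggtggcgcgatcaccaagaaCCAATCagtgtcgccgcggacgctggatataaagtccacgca
H2-D1: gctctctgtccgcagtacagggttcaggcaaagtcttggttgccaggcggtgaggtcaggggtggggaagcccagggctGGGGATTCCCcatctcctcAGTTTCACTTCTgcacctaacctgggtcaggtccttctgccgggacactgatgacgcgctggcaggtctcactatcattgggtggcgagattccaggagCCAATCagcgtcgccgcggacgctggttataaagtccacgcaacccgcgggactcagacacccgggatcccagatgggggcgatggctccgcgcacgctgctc
B2m: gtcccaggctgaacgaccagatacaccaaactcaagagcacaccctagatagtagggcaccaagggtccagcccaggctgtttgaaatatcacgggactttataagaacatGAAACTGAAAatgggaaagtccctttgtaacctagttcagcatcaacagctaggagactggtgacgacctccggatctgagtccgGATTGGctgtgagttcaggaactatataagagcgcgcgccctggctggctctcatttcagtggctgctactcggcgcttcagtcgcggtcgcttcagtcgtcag
H2-Eb1: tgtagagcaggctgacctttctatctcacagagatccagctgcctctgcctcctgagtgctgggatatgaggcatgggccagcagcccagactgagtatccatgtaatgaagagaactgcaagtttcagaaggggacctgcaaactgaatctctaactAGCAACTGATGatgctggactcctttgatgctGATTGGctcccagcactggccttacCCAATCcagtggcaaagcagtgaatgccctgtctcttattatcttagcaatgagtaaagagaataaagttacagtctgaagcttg
H2-Ob: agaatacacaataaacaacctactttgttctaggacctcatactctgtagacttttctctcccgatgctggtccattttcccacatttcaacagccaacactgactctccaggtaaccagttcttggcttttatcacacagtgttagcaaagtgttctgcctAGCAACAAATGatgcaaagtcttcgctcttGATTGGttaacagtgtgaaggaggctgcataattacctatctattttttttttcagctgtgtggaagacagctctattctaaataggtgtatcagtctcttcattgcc
H2-DMb1: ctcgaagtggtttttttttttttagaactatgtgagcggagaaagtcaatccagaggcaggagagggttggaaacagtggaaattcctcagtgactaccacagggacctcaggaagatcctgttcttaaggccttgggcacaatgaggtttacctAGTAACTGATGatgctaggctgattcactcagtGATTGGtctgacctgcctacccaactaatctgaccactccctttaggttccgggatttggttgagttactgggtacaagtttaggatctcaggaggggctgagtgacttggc

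A promoter was listed for 37 of the 63 genes and for 22 of the 35 measured ones. The interferon consensus stood in 6 of the 10 measured class I chains with a promoter (H2-K1, H2-D1, H2-Q4, H2-Q6, H2-Q7 and H2-Q10), against 11 (0.0335%) of the 32851 promoter windows of the whole table. In H2-K1 its first base was at position -92, counted from the annotated start. The kappaB motif stood in 4 of these 10 (H2-K1, H2-D1, H2-Q6 and H2-Q7), against 0.107% of all windows. The simplified X box stood in 3 of 6 measured class II chains with a promoter (H2-DMb1, H2-Ob and H2-Eb1), at positions -95, -88 and -92, against 0.895% of all windows. These 3 genes define the motif, so this count was fixed in advance. The Y box stood in 5 of the 6 class II chains and in 7 of the 10 class I chains, against 16.1% of all windows. In H2-K1 it began at position 9, after the annotated start, and in H2-D1 at -53. The IRF core stood in B2m, Erap1 and H2-T23, against 3.44% of all windows. Part of the other counts was also fixed in advance. H2-K1 and H2-D1 define the interferon consensus, both with H2-Q7 define the kappaB motif, and B2m and H2-T23 define the IRF core. A match is a run of letters, and binding was not measured.

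The class I genes are also close copies of each other. In pairwise alignment the promoter windows of H2-Q6 and H2-Q7 were identical at 97.7% of 260 aligned bases, and those of H2-D1 and H2-K1 at 88.3% of 239. The probe sequences were not used here, and a probe of a gene with near-identical copies can bind the RNA of several, so single class I values are uncertain as to which gene gave them.

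The arrays were 1-colour Agilent arrays, and a value is the scanner's processed signal of a spot, corrected for background within the array. Of 59305 spots that were not controls, 59.7% were well above background on the knockout array and 52.7% on the wild type array. Differences are knockout minus wild type on the log2 scale, after each signal was divided by its array's 75th percentile (572 for the knockout, 584 for the wild type array). The 13479 genes measured on both arrays had a median difference of 0.01 and an SD of 0.37. The error given is the scanner software's error of a spot pair, with a median of 0.20. Mouse-to-mouse and culture-to-culture variation is not part of it. With 1 array per genotype there was no replicate, so no difference below has a replicate check or a p-value. The Dnmt3a signal was 1822 on the knockout and 7042 on the wild type array, a difference of -1.92. Its 1 probe was not placed relative to the deletion here.

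Genes of both classes were higher on the knockout array by a similar and modest amount. Of the 35 measured genes 33 lay above 0, against 51.9% of all measured genes, and their median was 0.41 (1.33-fold) against 0.01 for all. Of these genes 7 were at least 1.5-fold higher, against 5.82% of all measured genes, and 0 were at least 1.5-fold lower, against 4.69%. None was at least 2-fold higher (0.824% of all measured genes) or 2-fold lower (0.727%). The difference exceeded the scanner error in 30 of the 35 genes and exceeded 2 such errors in 16, while 18.9% of all measured genes exceeded 2 errors. Differences past 1 error are common: the 22nd percentile of all measured genes was -0.21 and the 76th was 0.21. The 7 past 1.5-fold were Cd86, H2-T24, Ciita, H2-Q10, Cd40, H2-M3 and Tap1. The last 4 lay close to the threshold (0.58 on the log2 scale), at 0.60, 0.60, 0.60 and 0.59. H2-T10 lay just below it at 0.57. The count of 7 was 3 after quantile normalization and 3 with the 75th percentile over detected spots (Cd86, H2-T24 and Ciita in both). It was 5 with normexp background correction, where Ciita (0.51) and Tap1 (0.55) fell below the threshold, and 6 with the mean over probes. Scaling to spike-in probes left 0.

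**Figure D1:**
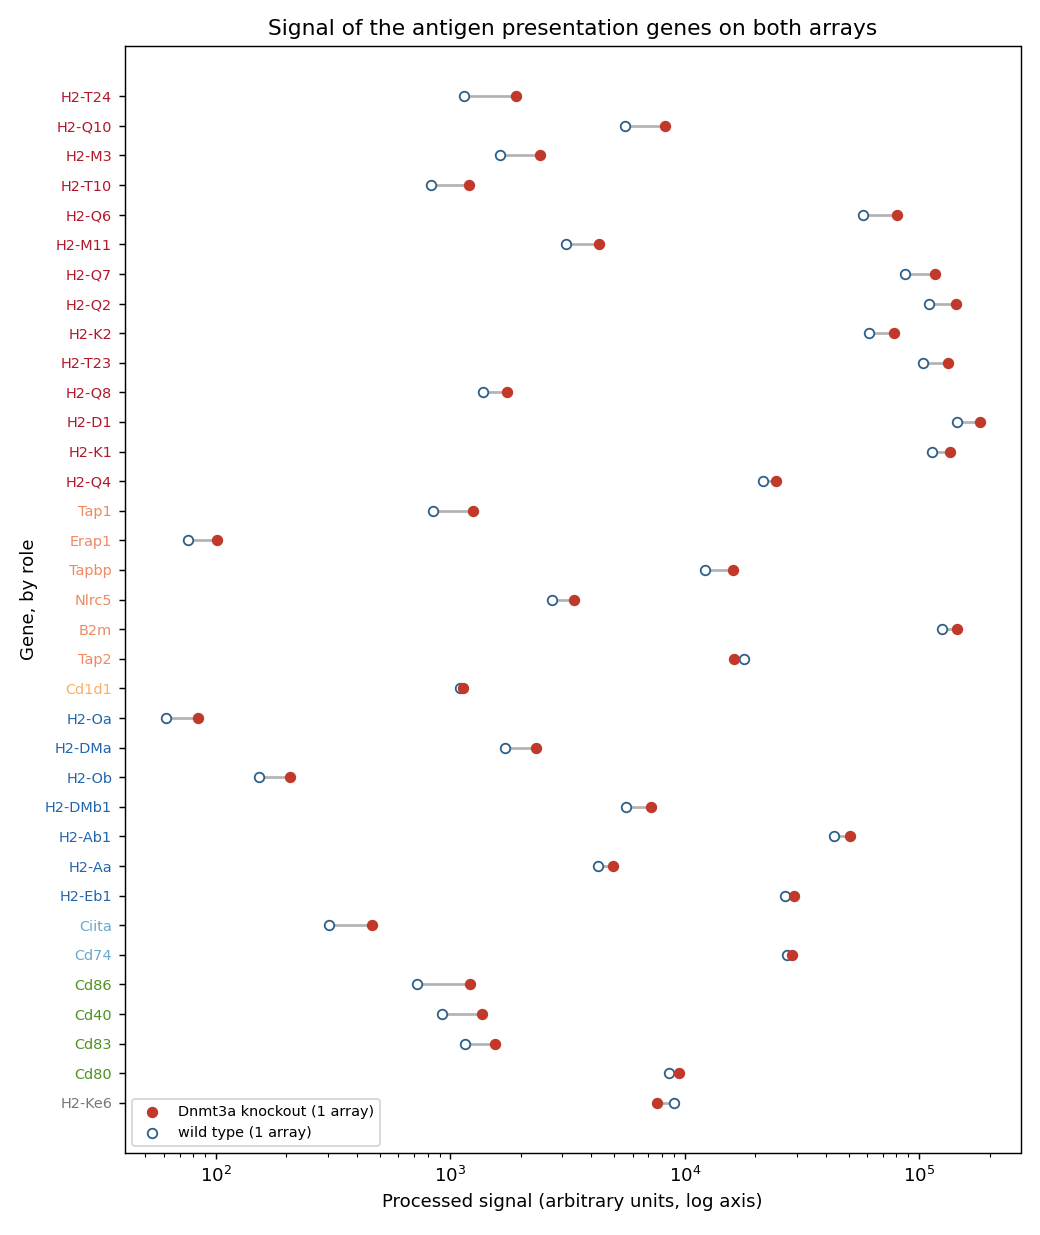
Processed signal (log axis) of the 35 measured genes on the Dnmt3a knockout array (filled red) and the wild type array (open blue), with gene names coloured by role. The filled point lies to the right for 33 genes, and Tap2 and H2-Ke6 are the exceptions; signals of different genes are not comparable.

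The directions depend on what the arrays are scaled to. The 8 measured spike-in probes were themselves higher on the knockout array, by a median of 0.53 (0.30 to 0.73). Scaling to them moves the median of all measured genes to -0.52 and leaves 8 of the 35 genes above 0: the 7 past 1.5-fold and H2-T10. The distance of each gene to the median of all genes is the same under both scalings, as is the difference between any 2 of the genes.

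Among class I heavy chains, all 14 measured genes were above 0, with a median of 0.43 (1.35-fold). The classical chain H2-K1 is spotted repeatedly. On 8 unmarked spots of its main probe the signal ran from 121881 to 141288 on the knockout array (median 138080), against 108580 to 117707 on the wild type array (median 114397). The ranges did not overlap, and the difference was 0.28 ± 0.05 (SD over 8 spots of 1 array pair, not over samples). After scaling, the lowest knockout spot lay 0.08 above the highest wild type spot. Over the 259 probes with 8 or more measured spots the median SD was 0.07. How many of those probes separate in the same way was not counted. A further H2-K1 probe gave 99835 on the knockout and 72049 on the wild type array, a difference of 0.50. The other classical chain, H2-D1, had a signal of 181370 on the knockout and 145532 on the wild type array (0.35, error 0.20).

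The nonclassical and other class I chains, without H2-K1 and H2-D1, ran from 0.22 to 0.76. The classical genes H2-K1 and H2-D1 are too few for a comparison of spread. H2-T24 was highest, at 1912 on the knockout and 1150 on the wild type array (0.76, 1.70-fold), and its second probe gave 0.91. H2-M3, which presents N-formylated peptides, was at 2405 on the knockout and 1624 on the wild type array (0.60, 1.51-fold). H2-T23 encodes Qa-1, a ligand of natural killer receptors. Its signal was 132958 on the knockout and 104045 on the wild type array (0.38). On the main H2-K1 probe, H2-T24 exceeded H2-K1 by 0.48 (error 0.29), a contrast free of the scaling. The further H2-K1 probe, at 0.50, lay closer to H2-T24.

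Of the H2-Q genes, H2-Q6 (0.50) and H2-Q7 (0.45), which belong to the Qa-2 family, were close to each other, as are their promoters. H2-Q8 was at 0.37 and H2-Q2 at 0.41, with a second H2-Q2 probe at 0.59. H2-Q4 was at the low end, with 24567 on the knockout and 21572 on the wild type array (0.22, error 0.20). For H2-Q10, a secreted chain known from liver, the probes disagree in size: the brighter gave 8227 on the knockout and 5550 on the wild type array (0.60), and the dimmer 150 on the knockout and 144 on the wild type array (0.09). The call of H2-Q10 past 1.5-fold therefore rests on 1 probe. H2-K2, annotated as a pseudogene, gave 0.39 and 0.40 from its pair of probes, and H2-T10, also annotated as a pseudogene, was at 1201 on the knockout and 828 on the wild type array.

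The H2-M genes of the family described in mouse vomeronasal neurons were mostly not detected. H2-M1, H2-M10.1, H2-M10.2, H2-M10.3, H2-M10.4 and H2-M10.6 were not well above background on either array, with 7.20 for H2-M10.4 on the knockout array as the highest of their signals there. H2-M5, H2-Q1 and H2-T3 were not well above background either. H2-M11 of the same family was well above background on both arrays, with a signal of 4304 on the knockout and 3121 on the wild type array (0.49). H2-M9 has 2 probes, and 1 of them was above background on the knockout array only, at 44.1 on the knockout against 27.2 on the wild type array (error 0.40). The wild type spot was not called well above background, although its signal lies above the lowest signal so called there (25.8). The observed ratio of this probe was 1.65-fold, which is not a lower bound. The other H2-M9 probe was not well above background on either array, at 5.79 on the knockout and 5.77 on the wild type array. The ratio therefore rests on 1 dim probe.

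Of the 6 genes that load or activate class I, 5 were above 0, with a median of 0.38. Tap1, a subunit of the peptide transporter, was the highest and has 10 spots of its probe. These ran from 1072 to 1322 on the knockout array (median 1265) and from 780 to 931 on the wild type array (median 853). The ranges did not overlap and lay 0.23 apart after scaling. The difference was above 0 at each of the 10 spot positions, at 0.59 ± 0.09 (SD over spots). The 1 probe of its partner subunit Tap2 gave 16217 on the knockout and 17958 on the wild type array (-0.12, error 0.20). Tap1 exceeded Tap2 by 0.71 (error 0.29).

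The light chain B2m, on 2 spots, read 144810 and 145041 on the knockout array and 122216 and 128303 on the wild type array (0.24). It lay 0.35 (error 0.29) below Tap1. Tapasin (Tapbp) was at 16046 on the knockout and 12189 on the wild type array (0.43). The peptidase Erap1 was dim, at 101 on the knockout and 76.2 on the wild type array (0.44, error 0.25). The class I transactivator Nlrc5 was at 3361 on the knockout and 2726 on the wild type array (0.33), with 0.05 from a second, dim probe. Cd1d1, which presents lipids to natural killer T cells on a class I-like chain, had 1135 on the knockout and 1098 on the wild type array (0.08), and its dimmer probe gave 0.40.

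**Figure D2:**
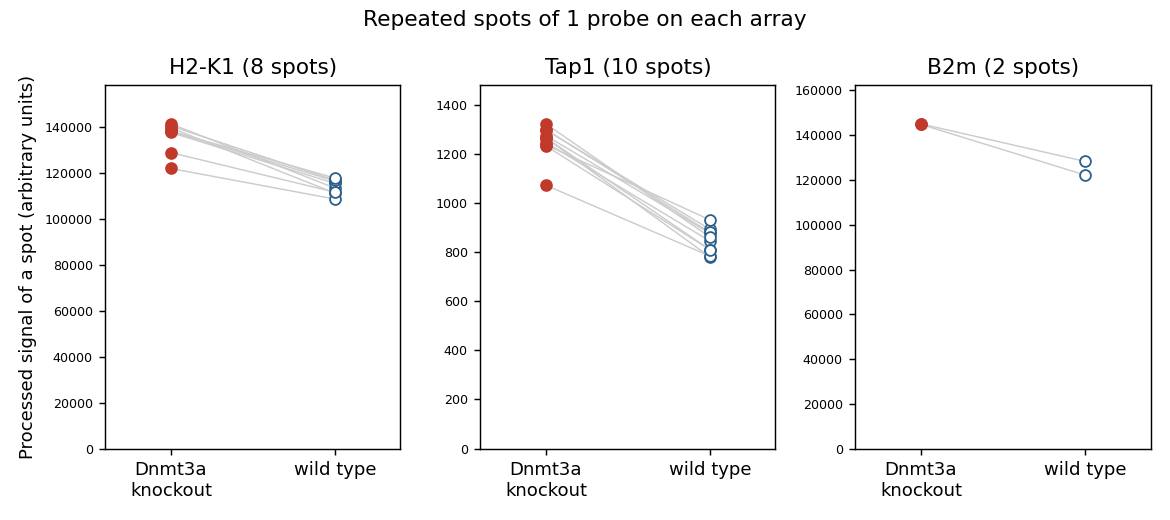
Processed signal of every unmarked spot of the repeated probes of H2-K1 (8 spots), Tap1 (10) and B2m (2) on the Dnmt3a knockout array (left) and the wild type array (right), with lines joining the same spot position. In each panel all knockout spots lie above all wild type spots. How many other repeated probes separate in this way was not counted, and spots repeat the reading of 1 RNA sample per genotype.

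Class II genes were higher on the knockout array too, with all 9 measured genes above 0 and a median of 0.39 (1.31-fold). Their transactivator Ciita led them, with a signal of 462 on the knockout and 303 on the wild type array (0.64, error 0.21, 1.56-fold). The peptide-binding chains had smaller differences than Ciita. H2-Aa had 4927 on the knockout and 4273 on the wild type array (0.24), and H2-Ab1 had 50739 on the knockout and 43441 on the wild type array (0.25, with 0.22 from its second probe). H2-Eb1 was the lowest chain, at 29299 on the knockout and 26871 on the wild type array (0.15), within the scanner error. The invariant chain Cd74 was at 28740 on the knockout and 27299 on the wild type array (0.10), so that Ciita exceeded it by 0.54 (error 0.29).

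The genes that edit class II cargo had differences of 0.39 to 0.48, against 0.15 to 0.25 for the peptide-binding chains, and the scanner errors of the 2 sets overlap. With normexp background correction the sets were not apart: H2-Oa was at 0.23, below H2-Ab1 and H2-Aa (0.27 each). H2-DMa (0.50), H2-Ob (0.42) and H2-DMb1 (0.40) stayed above these chains there. H2-DMa had 2329 on the knockout and 1705 on the wild type array (0.48), and its partner H2-DMb1 had 7196 on the knockout and 5624 on the wild type array (0.39). The H2-O chains, which restrain H2-DM and are best known from B cells, were dim: H2-Oa had 83.6 on the knockout and 61.0 on the wild type array (0.48, error 0.26). H2-Ob had 207 on the knockout and 153 on the wild type array (0.46, with 0.28 from its second probe). H2-DMb2 and H2-Eb2 were not well above background on either array.

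All 4 costimulators were above 0, with a median of 0.53 (1.44-fold). Cd86, which binds CD28 on T cells, was at 1215 on the knockout and 724 on the wild type array (0.78, error 0.20, 1.71-fold). It and H2-T24 were the highest of the 35 genes, and their order is not settled: H2-T24 was above Cd86 with normexp background correction (0.75 against 0.72) and with the mean over probes (0.84 against 0.78). Cd40, the receptor of the T cell ligand CD40L, had 1367 on the knockout and 922 on the wild type array (0.60), and Cd83, a marker of mature dendritic cells, had 1556 on the knockout and 1156 on the wild type array (0.46). Cd80, the other CD28 ligand, had 9427 on the knockout and 8604 on the wild type array (0.16) on its brighter probe. Its dimmer probe read 122 on the knockout and 69.9 on the wild type array (0.83), so the probes of Cd80 disagree in size. On the brighter probe, Cd86 exceeded Cd80 by 0.62 (error 0.29).

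**Figure D3:**
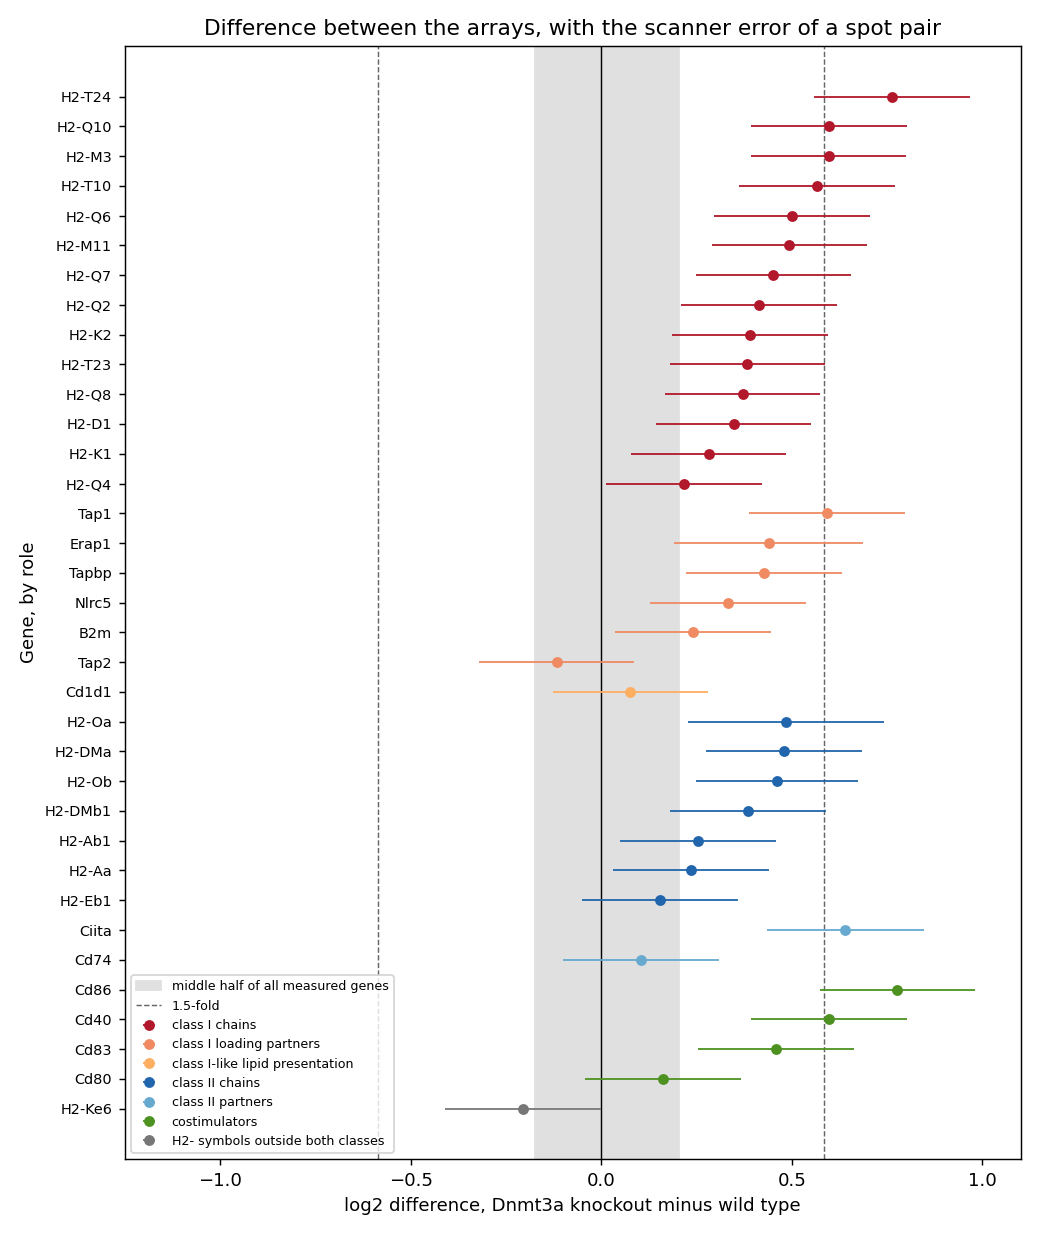
Log2 difference, Dnmt3a knockout minus wild type, of the 35 measured genes by role, with the scanner error of a spot pair as bars and the range from the 25th to the 75th percentile of all measured genes (-0.17 to 0.20) in grey. All class I chains lie between 0.22 and 0.76 and all class II chains between 0.15 and 0.48.

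Further genes of the class I pathway were partly higher. Of 13 measured genes 10 were above 0, against 51.9% of all measured genes, with a median of 0.29. Past 1.5-fold, 1 was higher, against 5.82% of all measured genes, so that count is near the share over all genes. Mr1, which presents vitamin metabolites, was highest at 119 on the knockout and 74.0 on the wild type array (0.72, error 0.25), followed by the tapasin relative Tapbpl (0.52). The general chaperones Calr (23917 on the knockout, 30123 on the wild type array, -0.30) and Pdia3 (-0.09) were lowest. The 13 genes of the list of class II regulation and endosomal processing were mixed, with 12 measured, 6 above 0 and 6 below, and a median of -0.04. Marchf1, a ubiquitin ligase that removes class II from the surface, was at 0.69, but its second probe gave -0.60. The endosomal protease Lgmn was at 0.45. At the low end were Nfyb (-0.24, other probes -0.30 and 0.06), a subunit of the factor that binds the Y box, and Ifi30 (-0.21), a thiol reductase of antigen processing.

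Of further ligands of T cell costimulation and restraint, 5 of 7 measured genes were above 0, against 51.9% of all measured genes. Their median was 0.34. Icosl, the ligand of ICOS, had 584 on the knockout and 328 on the wild type array (0.86, 1.82-fold), and Tnfsf9, the ligand of 4-1BB, was at 0.70. The inhibitory ligand Cd274 (-0.09) and Cd276 (118 on the knockout, 164 on the wild type array, -0.45) were lowest.

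Other genes that lie among the MHC genes on chromosome 17 were compared with them. Of the other genes between Tapbp and H2-M2 in the gene order, 103 were measured, 61 (59.2%) were above 0, and their median was 0.05, while 94.3% of the 35 genes described here were above 0, with a median of 0.41. Past 1.5-fold, 5 of these 103 neighbours were higher and 4 were lower, against 5.82% and 4.69% of all measured genes. The highest were the dim odorant receptor Olfr103 (1.95) and Aif1 (0.64), which marks macrophages, and the lowest were Cdsn (-0.73) and Ddr1 (-0.71). The neighbours include Psmb9 (0.52) and Psmb8 (0.35), which are also in the list of further class I pathway genes, so the 2 sets are not fully apart in function. The genes described here were chosen by symbol, so a class I gene under another symbol would count as a neighbour. Whether Gm11127 (0.60), Gm8909 (0.56) and Gm8801 (0.11) are such genes was not examined. H2-Ke6, an MHC-linked gene for a hydroxysteroid dehydrogenase that presents no antigen, had 7616 on the knockout and 8961 on the wild type array (-0.20).

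**Figure D4:**
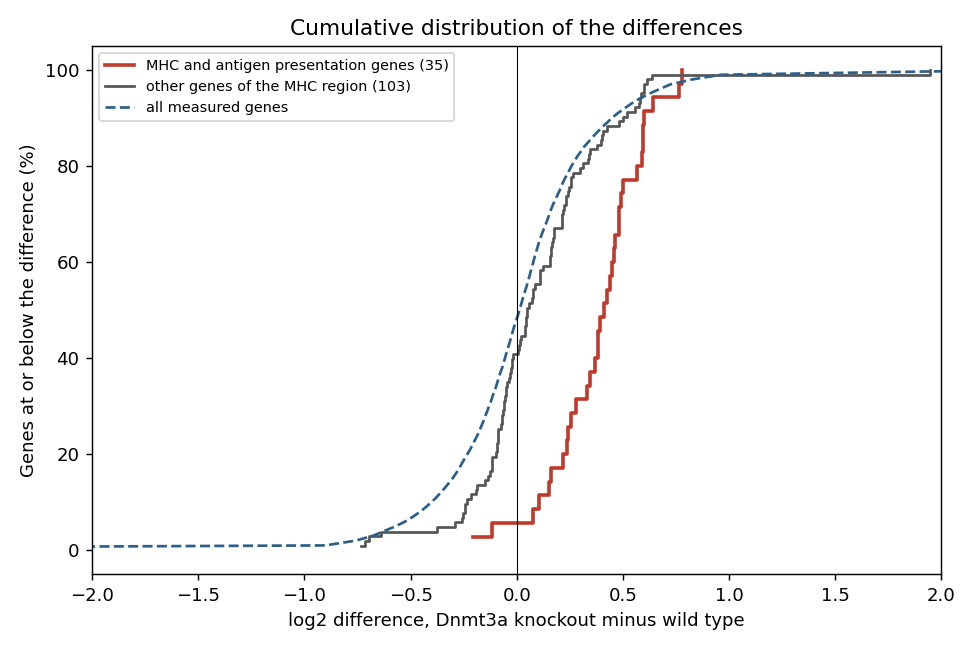
Cumulative distribution of the log2 difference, Dnmt3a knockout minus wild type, for the 35 MHC and antigen presentation genes (red), the 103 other measured genes of the MHC region (grey) and all measured genes (dashed). The red curve lies to the right, with a median of 0.41 against 0.05 and 0.01.

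Some of these genes are bright: 13 of the 35 fell in the brightest 10% of measured genes. In that brightest 10% the median difference was 0.05, with 60.7% above 0, 7.94% past 1.5-fold upward and 1.41% past it downward. The array rows were split into 3 equal bands, since position on an array can touch the signal. In the first band 13 of the genes with 1 spot had a median of 0.48, and in the second band 14 had a median of 0.40. In the last band 5 (H2-D1, H2-Oa, Cd80, Tap2 and H2-Ke6) had a median of 0.16, with 3 above 0. The median of all genes was between 0.00 and 0.02 in each band.

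Markers of the cell types that carry these molecules differed between the arrays as well. Of 11 measured macrophage markers 10 were above 0, with a median of 0.68 and a summed signal of 448612 on the knockout and 392377 on the wild type array. Most of that sum was Csf1r, at 332857 on the knockout and 317392 on the wild type array (0.10). Past 1.5-fold, 6 of the macrophage markers were higher and 0 lower. Marco (1.47) and Vsig4 (1.32) were highest, and Itgam was lowest (-0.27, other probes 0.32 and 0.22). Of 10 measured dendritic cell markers 8 were above 0 (median 0.35, summed signal 165308 on the knockout and 157186 on the wild type array), and Xcr1 and Clec9a were not above background on either. Most of that sum was Siglech, at 128085 on the knockout and 130427 on the wild type array (0.00). Past 1.5-fold, 3 of the dendritic cell markers were higher and 0 lower. Of 9 measured B cell markers 8 were above 0 (median 0.22, summed signal of all 10 with a probe 53517 on the knockout and 42283 on the wild type array). Most of that sum was Blnk, at 47406 on the knockout and 36686 on the wild type array (0.40). None of the B cell markers was at least 1.5-fold higher, and Ebf1 was lower, at 143 on the knockout and 239 on the wild type array (-0.72). Osteoclast markers were present on both arrays and went the other way, with 0 of 12 above 0, a median of -0.60 and a summed signal of 995607 on the knockout and 1174900 on the wild type array. Most of that sum was Acp5 and Ctsk, which differed little. Acp5 was at 442434 on the knockout and 451856 on the wild type array (-0.0005). Ctsk was at 356772 on the knockout and 413300 on the wild type array (-0.18). Past 1.5-fold, 6 of the osteoclast markers were lower and 0 higher, with Tnfrsf11a (-1.20), Car2 (-0.89) and Calcr (-0.84) lowest. The part of all these cell type markers in the differences above was not tested. In such bulk RNA, more cells of a type and more RNA per cell cannot be told apart.

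**Figure D5:**
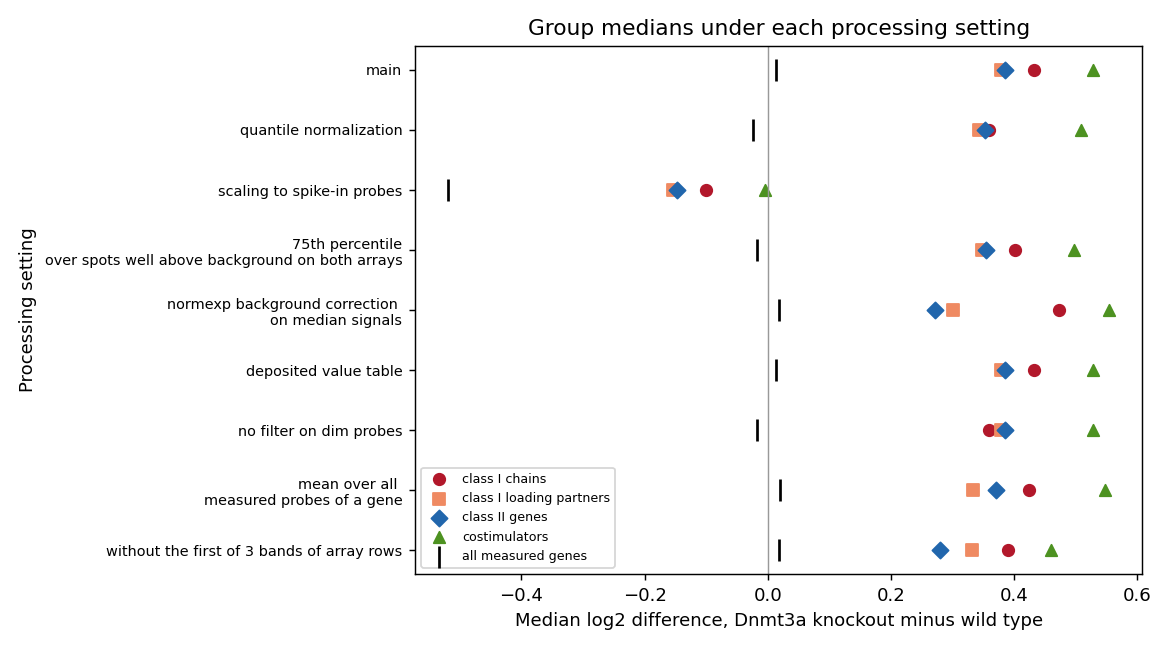
Median log2 difference, Dnmt3a knockout minus wild type, of 4 groups of antigen presentation genes under each processing setting, with the median of all measured genes as a black bar. The group medians lie to the right of the black bar under each setting shown, and scaling to spike-in probes moves all of them below 0.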

How the data were processed

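Spot intensity was deposited as scanner output, with background already subtracted and, per the file headers, extracted with Agilent software version 10.10.1.1 (the submitters' processing notes name Agilent Feature Extraction 9.1). Per the file headers, each spot also has marks of 0 or 1 for signal over background, saturation and unevenness. The deposited value table holds the same intensity times about 1 factor per array and served as an alternative. Marked spots (172 on the knockout and 157 on the wild type array) were left out, and 0 were saturated. Spots of a probe were averaged as log2 values, and probes were named by unversioned accession through a RefSeq gene table of GRCm38.p6, used for names and gene order only. Of 55649 probes 27224 were named, for 20654 genes. The brightest probe stood for its gene, and a gene was measured where its probe was well above background on both arrays.

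With 1 array per genotype no test was made. Calls are differences past 1.5-fold, set against all measured genes. H2-Ke6 was kept outside both classes, since it encodes another enzyme. Every gene of the rule with a probe is named, and for the other pathway lists the 2 highest and 2 lowest measured genes. The members, lists and tests were chosen with earlier results of these data known. The files hold no mean spot signal, so normexp (limma 3.58.1, R 4.3.3, offset 50) used the median signal. The arrays share 1 slide and 1 scan, per the file headers. Culture, RNA preparation, labelling and position on the slide cannot be told apart from genotype.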

Additional observations from a re-analysis of the deposited data

How the results depend on the processing

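The medians of class I chains, class I loading partners, class II genes and costimulators moved by less than the scanner error (0.20) under 7 of the 8 alternatives. With scaling to spike-in probes they were -0.10, -0.15, -0.15 and -0.0042, beside -0.52 for all measured genes, with 8 genes above 0. Past 1.5-fold, 0 were then higher and 2 lower. The count of genes at least 1.5-fold higher, 7, was 3 after quantile normalization and 3 with the 75th percentile over detected spots. It was also 3 without the first of the 3 bands of array rows, where 24 genes were left. With normexp it was 5, with the mean over probes 6, and with no filter on dim probes 8. With no filter on dim probes 1 gene was at least 1.5-fold lower. Without the first band Ciita, Cd40 and H2-M3 had no spot left, and H2-Q10 was at 0.09, the value of its dimmer probe. With the mean over probes, which disagree in size for both genes, H2-Q10 was at 0.34 and Cd80 at 0.50. The cause of the other changes was not tested. No paired analysis was possible because each genotype has 1 array, and no array could be left out. The number of arrays limits the precision of every value, and for genes near background (Erap1, H2-Oa and H2-M9) the signal limits it further.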
